A study of Mus musculus with 6 samples.

Results

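Receptor tyrosine kinases are single-pass membrane proteins that read growth factors outside the cell and phosphorylate tyrosines inside it. The genes described here are 49 receptor tyrosine kinases listed by name, without the insulin and IGF receptors, and 48 of them had a probe set annotated to that gene alone, out of 19938 genes named in this way. Ephb2 was not measured by such a probe set in the annotation used here. Where a gene had several probe sets, the one with the highest mean signal over the 6 arrays stood for it, which among these receptors applied only to Ephb1. The samples were B cell precursors of 129SvEv mice transformed with BCR-ABL1, the constitutively active kinase that defines Philadelphia chromosome-positive leukaemia. Of the 6 samples, 3 were wild type for Etv5 and 3 were Etv5 knockout. Both genotypes carried BCR-ABL1, so neither group is free of an active oncogenic tyrosine kinase. The labels used here do not give the age of the mice, how BCR-ABL1 was introduced, which part of Etv5 was deleted, or whether samples within a genotype are separate mice or cultures, so p-values reflect only the variation among these 6 samples, possibly technical.

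In general, a ligand brings receptor chains together, the chains phosphorylate each other, and adaptors such as GRB2, SHC and GAB proteins dock on the phosphorylated tyrosines and pass the signal to RAS-ERK, PI3K and phospholipase C gamma. Ubiquitin ligases of the CBL family and phosphatases end the signal. In the mouse B lineage, FLT3 and KIT are best known as receptors of early progenitors, and FLT3 is shut down as cells commit under PAX5. ETV5 belongs to the PEA3 subgroup of ETS transcription factors, which in several tissues lie downstream of receptor tyrosine kinases; RET signalling raises Etv5 in mouse kidney and spermatogonia.

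Promoter windows are shown first for the receptors that rose more than 2-fold, because ETS factors bind motifs built on the letters GGAA and these genes were higher in the samples labelled knockout for an ETS factor. The sequences are the 250 bases before the RefSeq gene start on assembly GRCm38.p6, a C57BL/6J genome and not that of the 129SvEv mice used here. They lie at chr9:102834670-102834919 on the plus strand for Ryk, chr4:141300971-141301220 on the plus strand for Epha2 and chr5:147400490-147400739 on the minus strand for Flt3. Each is written 5′ to 3′ along the gene, with GGAA or its reverse complement TTCC in capitals.
Ryk: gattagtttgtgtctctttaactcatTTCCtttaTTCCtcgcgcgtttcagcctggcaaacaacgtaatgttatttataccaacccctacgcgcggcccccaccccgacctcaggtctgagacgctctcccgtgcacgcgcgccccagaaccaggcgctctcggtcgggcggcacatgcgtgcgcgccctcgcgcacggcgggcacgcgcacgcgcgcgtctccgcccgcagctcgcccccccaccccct
Epha2: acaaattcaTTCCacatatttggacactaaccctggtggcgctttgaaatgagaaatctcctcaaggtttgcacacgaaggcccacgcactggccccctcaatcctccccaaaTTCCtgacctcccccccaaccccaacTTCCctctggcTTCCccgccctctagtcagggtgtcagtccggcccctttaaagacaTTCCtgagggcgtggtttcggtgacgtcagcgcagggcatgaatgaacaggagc
Flt3: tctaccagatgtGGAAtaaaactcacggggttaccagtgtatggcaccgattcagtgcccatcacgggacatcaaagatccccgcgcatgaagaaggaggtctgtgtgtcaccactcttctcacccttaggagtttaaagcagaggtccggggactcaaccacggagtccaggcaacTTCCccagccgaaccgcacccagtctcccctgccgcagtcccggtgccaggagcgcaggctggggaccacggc
The stretch shown held 2 such matches for Ryk, 5 for Epha2 and 2 for Flt3. In the full window of 300 bases, which runs 50 bases past the start, matches numbered 3 for Ryk, 6 for Epha2, 2 for Flt3, 4 for Ephb4, 2 for Tyro3 and 4 for Axl. The median over 32851 promoter windows was 3, counting matches on both strands, and 96.0% of windows held at least 1. None of these 6 windows held the longer CCGGAA or its reverse complement TTCCGG, which 14.9% of all windows hold. A match is a description, not a binding site. No window for Ret was found among the promoter sequences used here.

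The arrays were alike, and the cells carried a B cell precursor profile. Array medians lay between 7.79 and 7.84 log2 units, and pairs of arrays correlated across probe sets at 0.991 to 0.994 between genotypes, 0.994 to 0.997 within the wild type and 0.995 to 0.996 within the knockout. All 13 measured B cell precursor markers, Cd79a, Igll1 and Ebf1 among them, lay above 9.10 log2 units in every sample. Pax5 was higher in the knockout by 0.43 (limma adjusted p = 0.0127), and 12 did not pass at 0.05. The median change over the 13 was 0.11 log2 units. An unadjusted limma p under 0.05 was found for 4 (Pax5, Ptprc, Tcf3 and Cd79b, all higher in the knockout). Etv5, the deleted gene, had a pair of probe sets annotated to it. The brighter one gave 11.48, 11.52 and 11.46 in wild-type samples, against 11.67, 11.88 and 11.73 in knockout samples, a change of 0.28 ± 0.068 (SE, log2, limma adjusted p = 0.13), which goes against the labels without passing the test; in 2 of 15 alternative fits it passed, higher in the knockout (lowest adjusted p = 0.0437). The other gave 9.30, 9.52 and 9.27 against 8.97, 8.91 and 8.92, a change of -0.43 ± 0.080 (adjusted p = 0.0467). Probe-set numbers of the receptors were grouped by chromosome. That of the dimmer Etv5 probe set lay between those of Ephb3 and Epha6, on chromosome 16 with Etv5. The number of the brighter one lay between those of Ddr2 on chromosome 1 and Ros1 on chromosome 10. It was thus outside the numbers of the receptors on chromosome 16. Whether the brighter one reads Etv5 was not tested. Where the probes lie relative to the deletion is not given in the sources used here, so neither probe set is known to check it.

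Of the 48 measured receptors, 7 changed between genotypes: Ryk, Epha2, Flt3 and Tyro3 rose in the knockout, and Ret, Ephb4 and Axl fell. That is 14.6% of the receptors, beside 4.43% of all genes called by the same rule (limma, Benjamini-Hochberg adjusted p under 0.05 over all 35556 probe sets, of which 3.08% passed). Over all genes, 2.42% were called higher and 2.01% lower. Of the receptors, 4 moved by at least 1 log2 unit, beside 1.03% of all genes. The other 41 receptors did not pass, and the median change over all 48 was -0.019 log2 units, beside -0.0039 over all genes. The receptors as a set were therefore not shifted one way: a few members moved far, in both directions. In bulk samples, fewer cells of a type and less RNA per cell cannot be told apart. The 7 genes belong to 6 receptor families and lie on 6 chromosomes.

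**Figure D1:**
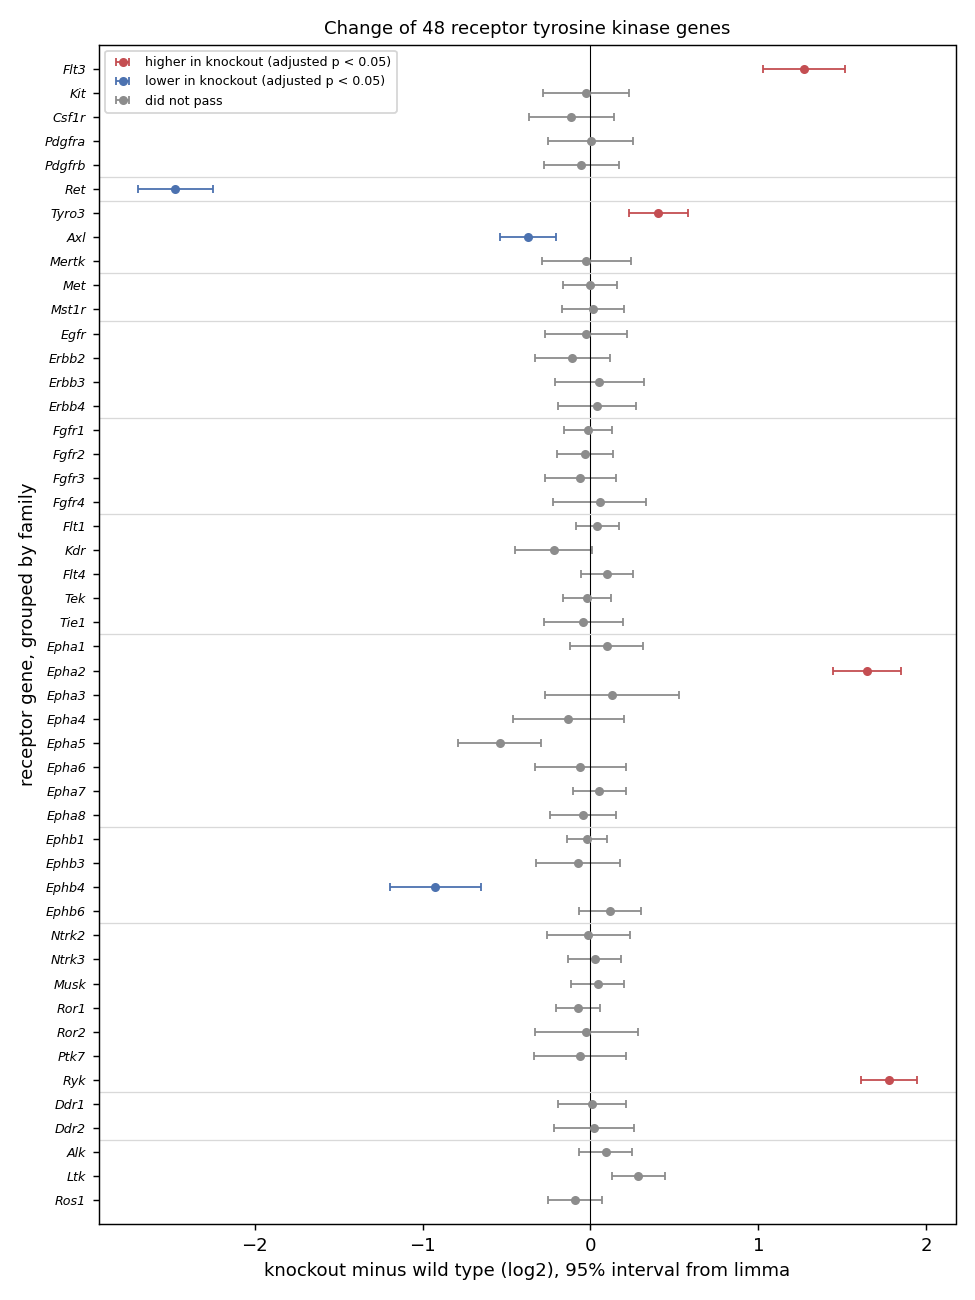
Change of each of the 48 measured receptor genes, as the log2 difference of knockout from wild type with limma's 95% interval, grouped by receptor family. The 4 risen genes (Flt3, Tyro3, Epha2, Ryk) and the 3 fallen genes (Ret, Axl, Ephb4) are marked by colour. Of the other 41, all but Epha5 and Ltk lie within 0.22 log2 units of 0. Epha5 (-0.54), which did not pass, moved further than Tyro3 (0.40) and Axl (-0.37), which did.

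Ret showed the greatest change of any of these receptors. RET is the signalling receptor of the GDNF family of ligands and is best known from the enteric nervous system, kidney and spermatogonial stem cells. Its log2 signals were 11.17, 11.21 and 11.25 in wild-type samples, against 8.58, 8.92 and 8.71 in knockout samples. All 3 knockout samples lay more than 2 log2 units below all 3 wild-type samples. The change was -2.47 ± 0.093 (SE, log2), 5.54-fold lower (95% interval -2.70 to -2.25, limma adjusted p = 0.000175). The signal left in the knockout, 8.74 ± 0.17 (SD, n = 3), was still above 7.23, the 95th percentile of the mean signals of 1194 olfactory and vomeronasal receptor genes. That percentile serves below as a reference for dim signals, since the table has no detection calls; probes differ in brightness, so it is a guide only.

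Of the 4 co-receptors through which RET recognises its ligands, Gfra1 and Gfra2 were bright as well, Gfra3 and Gfra4 lay near the dim reference, and Gfra2 fell. GFRA2, which pairs with neurturin, is encoded by Gfra2. This gene gave 12.14, 12.17 and 12.27 in wild-type samples, against 11.43, 11.53 and 11.46 in knockout samples, so the groups did not overlap. The change was -0.72 ± 0.059 (SE, log2, limma adjusted p = 0.00217). Gfra1, whose product pairs with GDNF, gave 11.51, 11.57 and 11.60 against 11.30, 11.45 and 11.37, a difference of -0.18 ± 0.060 that did not pass (adjusted p = 0.279). Gfra3 differed by 0.10 and Gfra4 by -0.13, and the 4 ligand genes Gdnf, Nrtn, Artn and Pspn by between -0.05 and 0.02, each without passing (limma adjusted p 0.688 to 0.999 over these 6 genes). The wild-type cells thus carried bright signals for Ret, Gfra1 and Gfra2, and in the knockout the first and the last of them were lower.

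Genes next to the changed receptors were read as well. For each changed receptor, the 3 nearest measured genes on each side in genome order were examined. Of these 42 neighbours, 2 passed, both on one side of Ret on chromosome 6; this is 4.76%, near the 4.43% of all genes. Csgalnact2, a chondroitin sulphate synthesis enzyme and the nearer one, went from 10.39 to 9.94 (change -0.45 ± 0.071, SE, limma adjusted p = 0.0265). Rasgef1a, a RAS-family exchange factor and the next one out, went from 8.90 to 7.97 (change -0.93 ± 0.084, adjusted p = 0.00309). On the other side Bms1, Zfp248 and Zfp9 differed by -0.18, -0.42 and -0.26 without passing (adjusted p = 0.157, 0.221 and 0.407), and the outermost gene on the Rasgef1a side, Fxyd4, by 0.04. The call of Rasgef1a held in each fit that left out 1 sample, whereas that of Csgalnact2 held in 1 of 6 fits (highest adjusted p 0.117), the one without knockout sample 2.

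**Figure D2:**
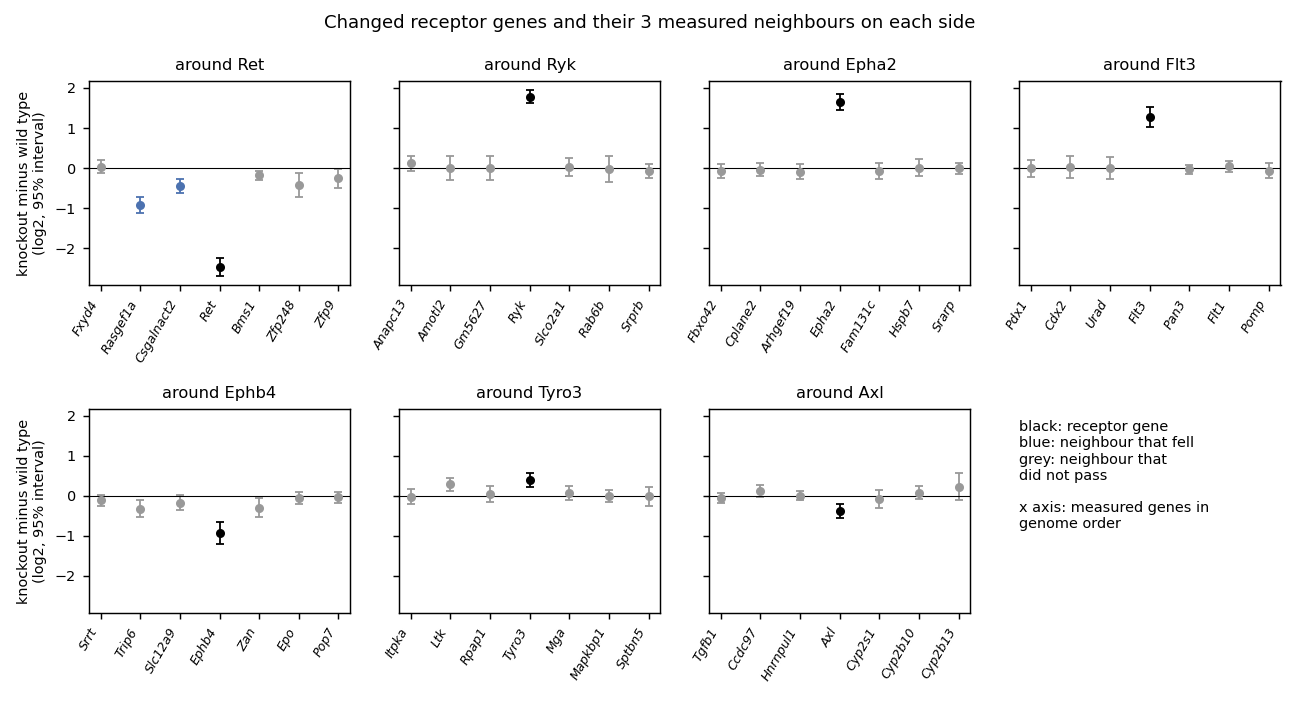
Each panel shows a changed receptor gene in black and its 3 measured neighbours on each side, in genome order on the x axis; the y axis is the log2 difference of knockout from wild type with limma's 95% interval. Only Ret has neighbours that passed, Csgalnact2 (-0.45) and Rasgef1a (-0.93), both in blue.

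Around the other 6 changed receptors, no measured neighbour passed. All 6 neighbours of Ephb4 were lower in the knockout, by 0.04 to 0.32 log2 units in size, with Trip6 at -0.32 and Zan at -0.29 (limma adjusted p = 0.166 and 0.287, unadjusted 0.00882 and 0.0211). Pan3 and Flt1, beside Flt3, differed by -0.03 and 0.04. Ltk, itself a receptor tyrosine kinase and 1 gene removed from Tyro3, differed by 0.28 (limma adjusted p = 0.1). Anapc13, the neighbour of Ryk that differed most, stood at 0.12, against 1.78 for Ryk itself.

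Among the class III receptors, which include the growth factor receptors of early blood cells, Flt3 was the only one of 5 that passed. FLT3 supports multipotent and early lymphoid progenitors. Its log2 signals were 7.59, 7.52 and 7.76 in wild-type samples, against 8.80, 9.07 and 8.82 in knockout samples. The lowest knockout sample lay about 1 log2 unit above the highest wild-type sample. The change was 1.27 ± 0.10 (SE, log2; 95% interval 1.03 to 1.52), 2.42-fold higher (limma adjusted p = 0.00192). Flt3l, the gene of its ligand, went from 8.24, 8.11 and 8.26 to 8.48, 8.42 and 8.65. The groups did not overlap, but the change of 0.31 ± 0.080 did not pass (adjusted p = 0.144).

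Kit, the stem cell factor receptor, gave 7.14, 7.48 and 7.12 in wild-type samples, against 7.24, 7.17 and 7.24 in knockout samples. The groups overlapped, the difference was -0.03 (95% interval -0.29 to 0.23), and the signals lay near the dim reference. Csf1r, the macrophage colony-stimulating factor receptor, differed by -0.11 (95% interval -0.36 to 0.14) and lay below the reference in both genotypes, as Pdgfra did. Csf1, the gene of its ligand, rose. Its signals were 8.28, 8.10 and 8.23 in wild-type samples, against 8.99, 9.31 and 9.19 in knockout samples, a change of 0.96 ± 0.097 (SE, log2, limma adjusted p = 0.00468). Kitl, the KIT ligand gene, differed by -0.04 at a signal under 5.3 in every sample.

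Markers of stem and progenitor cells and of other Flt3-bearing cells were read beside Flt3. Of 8 measured stem and progenitor markers, Meis1 (0.42, limma adjusted p = 0.0311) and Lmo2 (0.35, adjusted p = 0.0311) rose, and 6 did not pass, Cd34 at 6.45 and 6.40 among them. Meis1, at 6.55 and 6.98, lay below the dim reference in both genotypes. The mean of that list was 7.30 to 7.32 across wild-type samples and 7.38 to 7.44 across knockout samples. None of 9 dendritic cell markers passed, with 1 at an unadjusted p under 0.05 (Itgax), and list means of 7.52 to 7.65 and 7.51 to 7.56. Pax5, which represses Flt3 in mouse B cells, rose by 0.43 (adjusted p = 0.0127). The part of these genes in the rise of Flt3 was not tested.

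Ryk rose more than any other of these receptors. RYK is an atypical member with a Wnt-binding ectodomain and a kinase domain regarded as inactive. Its signals were 8.35, 8.26 and 8.35 in wild-type samples, against 10.06, 10.21 and 10.03 in knockout samples. The spread within a genotype was under 0.1 log2 units (SD 0.053 and 0.097, n = 3), beside a change of 1.78 ± 0.068 (SE; 95% interval 1.61 to 1.94), 3.43-fold higher (limma adjusted p = 0.000175). Wnt5a, the gene of a ligand of RYK, differed by -0.02 at signals below the dim reference. Of the other 6 receptors grouped with Ryk, the Trk receptors, MuSK and the Wnt-binding ROR and PTK7 proteins, none passed, and their differences ran from -0.07 to 0.04 (smallest adjusted p = 0.80). Ptk7, a catalytically inactive receptor of planar polarity signalling, was among them at -0.06 (95% interval -0.34 to 0.21).

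**Figure D3:**
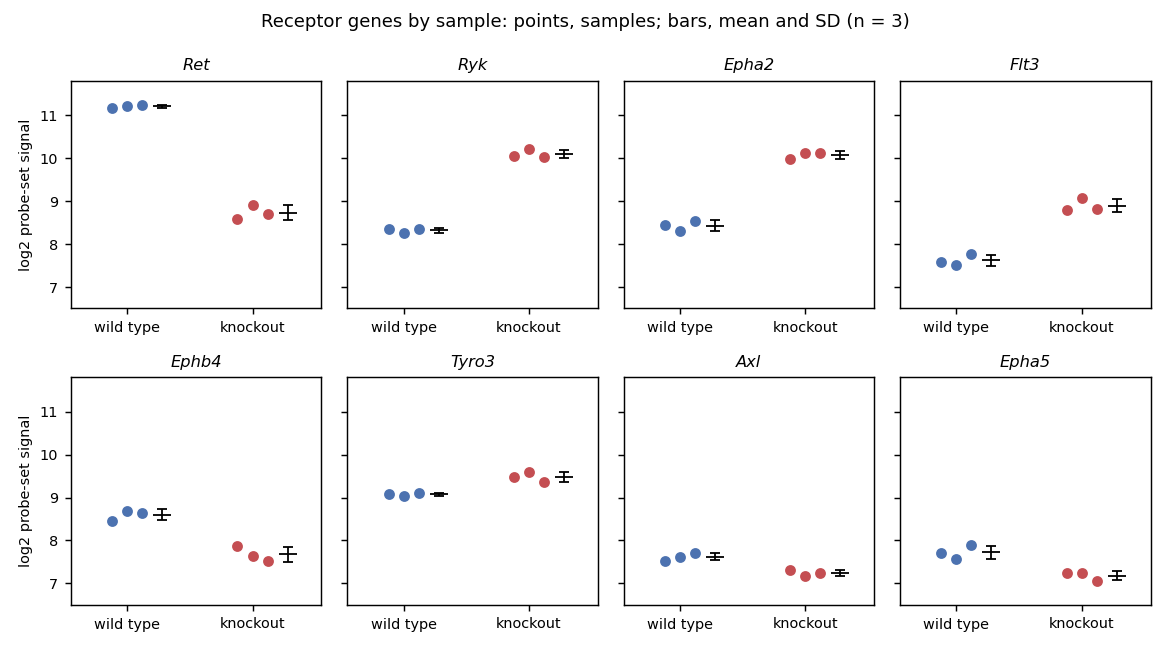
Log2 probe-set signal of 8 receptor genes in each sample (points), with mean and SD (n = 3) beside them, for wild type in blue and knockout in red. The groups do not overlap in any panel; the gap is widest for Ret, and Epha5, in the last panel, had an adjusted p of 0.0501 and did not pass. Heights of different genes are not comparable, since probes differ in brightness.

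The Eph receptors, the largest family here, split. EphA receptors bind membrane-anchored ephrin-A ligands and EphB receptors ephrin-B ligands on neighbouring cells. Epha2 gave 8.44, 8.30 and 8.55 in wild-type samples, against 9.98, 10.12 and 10.13 in knockout samples, with more than 1 log2 unit between the groups. It rose by 1.65 ± 0.083 (SE, log2; 95% interval 1.44 to 1.85), 3.13-fold (limma adjusted p = 0.000394). Epha5 gave 7.71, 7.56 and 7.89 against 7.25, 7.24 and 7.05. Its groups did not overlap, yet the difference of -0.54 ± 0.10 just missed the threshold (adjusted p = 0.0501), and its knockout mean of 7.18 lay below the dim reference. The other 6 EphA genes differed by -0.13 to 0.13 without passing.

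Ephb4, the receptor of ephrin-B2 in veins and on blood progenitors, was the only EphB gene that passed. It gave 8.45, 8.70 and 8.64 in wild-type samples, against 7.87, 7.63 and 7.52 in knockout samples, with no overlap. The change was -0.92 ± 0.11 (SE, log2; 95% interval -1.19 to -0.65), 1.90-fold lower (limma adjusted p = 0.00941). Without knockout sample 2 its adjusted p was 0.0520, and in the other 5 fits that left out 1 sample the call held. Ephb1, Ephb3 and Ephb6 differed by -0.02, -0.07 and 0.12. Ephb6, a kinase-dead receptor known from T cells, had a 95% interval of -0.07 to 0.30. Of the 8 ephrin genes, Efna1 to Efna5 and Efnb1 to Efnb3, none passed, with Efnb2 at 0.00 and the 5 EphA ligand genes between -0.07 and 0.14.

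The TAM receptors TYRO3, AXL and MERTK bind phosphatidylserine on dying cells through the bridging proteins GAS6 and protein S, and dampen inflammatory signalling. Tyro3 gave 9.08, 9.04 and 9.10 in wild-type samples, against 9.47, 9.60 and 9.36 in knockout samples, a rise of 0.40 ± 0.073 (SE, log2, limma adjusted p = 0.0438). Axl gave 7.53, 7.62 and 7.70 against 7.32, 7.17 and 7.25, a fall of 0.37 on the log2 scale (SE 0.069, adjusted p = 0.0479). Both pairs of groups were separate, but both changes were small. Each lost its call in all 6 fits that left out 1 sample (adjusted p 0.0528 to 0.173 for Tyro3 and 0.0733 to 0.18 for Axl), and the knockout mean of Axl, 7.25, lay next to the dim reference. Mertk, below that reference in both genotypes, differed by -0.02 (95% interval -0.29 to 0.24).

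Pros1, the gene of protein S, was the member of this system with the greatest change. It gave 8.20, 8.13 and 8.30 in wild-type samples, against 7.29, 7.47 and 7.31 in knockout samples. The groups did not overlap, and the change was -0.85 ± 0.076 (SE, log2, limma adjusted p = 0.00294). Gas6 differed by -0.11 without passing (adjusted p = 0.50).

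In the remaining families no receptor passed. The 4 ErbB genes differed by -0.11 to 0.05 and the 4 FGF receptor genes by -0.06 to 0.05. Erbb2 differed by -0.11 (95% interval -0.33 to 0.12) and Fgfr1 by -0.02 (95% interval -0.16 to 0.13). The 5 VEGF and angiopoietin receptor genes ran from -0.22 (Kdr, limma adjusted p = 0.48) to 0.10 (Flt4). Met and Mst1r, the receptors of HGF and of macrophage-stimulating protein, differed by -0.0038 and 0.017, and the collagen receptor genes Ddr1 and Ddr2 by 0.0099 and 0.019. Of Alk, Ltk and Ros1, Ltk moved most. It gave 9.18, 9.11 and 9.21 in wild-type samples, against 9.39, 9.55 and 9.42 in knockout samples, so the groups did not overlap, but the difference of 0.28 ± 0.065 did not pass (adjusted p = 0.1). In all, 9 of 48 receptors had groups that did not overlap, 18.8% beside 20.5% of all genes, and 9 had an unadjusted p under 0.05, beside 13.4% of all genes. These 9 are the 7 called genes, Epha5 and Ltk.

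For the receptors that did not pass, the data bound how large a change could have been missed. In 39 of 41 the 95% interval lay within 0.5 log2 units of 0 on both sides; the exceptions were Epha5 and Epha3. However, 22 of the 41 lay at or below the dim reference in both genotypes, so these signals may be background and a change in such genes may not register on the array. All 7 called receptors lay above the reference in both genotypes. Among genes above it in at least 1 genotype, 7 of 26 receptors were called (26.9%), beside 6.28% of 13440 genes.

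The receptors that did not pass shared an order of the arrays within each genotype, which other dim genes showed too. Their mean signal was 7.16, 7.27 and 7.10 across the wild type, beside 7.22, 7.17 and 7.08 across the knockout. Wild-type sample 2 was the highest of the wild type for 33 of 41 genes and wild-type sample 3 the lowest for 27. Knockout sample 1 was the highest of the knockout for 27 and knockout sample 3 the lowest for 28. In the same order, these shares are 80.5%, 65.9%, 65.9% and 68.3% of the 41, beside 52.0%, 41.6%, 42.4% and 52.4% of 6498 genes at or below the dim reference in both genotypes and 42.1%, 35.2%, 30.9% and 41.3% of all genes; the difference between the sets was not tested. These differences between arrays of one genotype, up to 0.17 log2 units, are of the size of many differences between genotypes in this group.

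Of 85 measured ligand and co-receptor genes, 2 rose, 3 fell and 80 did not pass, 5.88% called beside 4.43% of all genes, a share near that of any gene. Besides Gfra2, Pros1 and Csf1, the others were Lrp4 and Sdc4. Lrp4, whose product binds agrin and activates MuSK at the nerve-muscle synapse, gave 9.85, 9.86 and 10.08 in wild-type samples, against 8.52, 8.59 and 8.43 in knockout samples, a change of -1.41 ± 0.085 (SE, log2, limma adjusted p = 0.000701). Musk itself differed by 0.04 at signals below the dim reference. Sdc4, encoding syndecan-4, a heparan sulphate proteoglycan that helps FGFs bind their receptors, rose by 0.84 ± 0.062 (adjusted p = 0.0015). Pgf, the gene of a ligand of FLT1, gave 10.98, 10.94 and 11.06 against 11.26, 11.58 and 11.49, and its difference of 0.45 did not pass (adjusted p = 0.0699), although it passed in 8 of 15 alternative fits (lowest adjusted p = 0.0154). The medians were -0.022 over 67 ligand genes and 0.017 over 18 co-receptor genes. Each of the 5 calls held in every fit that left out 1 sample.

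**Figure D4:**
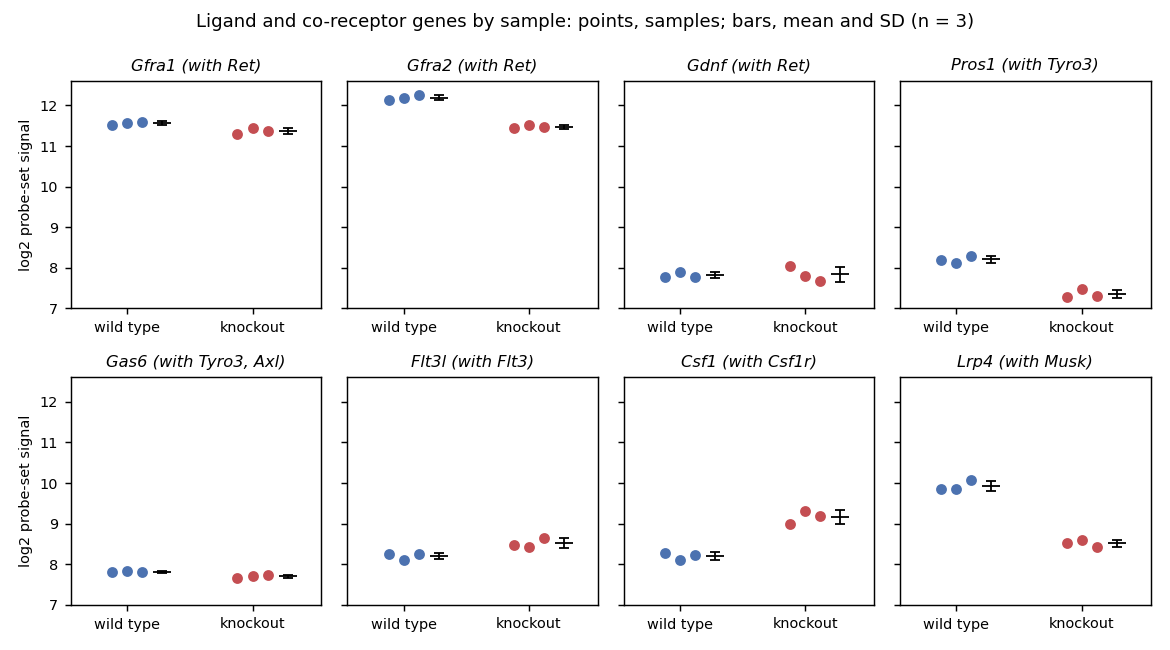
Log2 probe-set signal of 8 ligand and co-receptor genes in each sample (points), with mean and SD (n = 3), for wild type in blue and knockout in red; the receptor each works with is in brackets. Gfra2, Pros1, Csf1 and Lrp4 passed the test, while Gfra1, Gdnf, Gas6 and Flt3l did not. Heights of different genes are not comparable.

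Among proximal signalling genes, 7 of 61 rose, 2 fell and 52 did not pass, 14.8% called beside 4.43% of all genes. Above the dim reference in at least 1 genotype lay 28 of 35 adaptors and effectors and 25 of 26 inhibitors and turnover genes. Among all genes above it in this way, 6.28% were called. Of the 35 adaptors and effectors, Grb7 (1.0 ± 0.089, SE, log2), Plcg1 (0.76 ± 0.061), Gab3 (0.65 ± 0.075), Gab1 (0.41 ± 0.064) and Pik3r3 (0.34 ± 0.056) rose, with limma adjusted p from 0.002 to 0.0317. GRB7 is an SH2 adaptor of ErbB2 and RET, GAB1 and GAB3 are docking proteins, Plcg1 encodes phospholipase C gamma 1 and Pik3r3 a PI3K regulatory subunit. Pik3r3, at 6.61 and 6.95, lay below the dim reference in both genotypes. Grb10, an SH2 adaptor that restrains insulin receptor and other receptor signals, gave 8.83, 8.89 and 8.99 in wild-type samples, against 7.95, 8.16 and 8.13 in knockout samples, a change of -0.83 ± 0.078 (adjusted p = 0.00371). The paralogues Grb7 and Grb10 therefore moved in opposite directions. In the signals of Grb7, 8.42, 8.26 and 8.11 in wild-type samples, against 9.22, 9.34 and 9.25 in knockout samples, the groups did not overlap either.

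Of the 26 inhibitors and turnover genes, 3 passed. Sla2, encoding an SRC-like adaptor that recruits CBL in lymphocytes, fell from 10.06, 10.11 and 10.15 to 8.94, 9.15 and 8.84, a change of -1.13 ± 0.088 (SE, log2, limma adjusted p = 0.00186). Ptpn6, the gene of the phosphatase SHP-1, rose by 0.29 (adjusted p = 0.0437) and Spred1, a RAS-ERK inhibitor, by 0.27 (adjusted p = 0.0478). The ubiquitin ligase genes Cbl, Cblb and Cblc did not pass; Cblb, which was chosen after its value was seen, differed by 0.21 (adjusted p = 0.277). Leaving out 1 sample, the calls of Grb7, Plcg1, Grb10 and Sla2 held in all 6 fits, Gab3 lost its call without wild-type sample 1 (adjusted p = 0.0505), Gab1 kept it only without knockout sample 1, and Pik3r3, Ptpn6 and Spred1 lost it in all 6. The 9 calls fell to 4 without wild-type sample 1 and to 5 without wild-type sample 2, wild-type sample 3, knockout sample 2 or knockout sample 3.

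Markers of other cells that bear these receptors were read in the same way, and Itgam and Pecam1 passed among them. Of 16 myeloid markers, Itgam rose by 0.60 (limma adjusted p = 0.0235) and 15 did not pass. In this list 4 had an unadjusted p under 0.05 (Itgam, Fcgr3, Cd68 and Fcgr1, all higher in the knockout). Lyz2, which did not pass, went the other way, from 8.89 to 8.57, and its groups did not overlap. The median change over the 16 was -0.024 log2 units. Of the 16, 8 lay at or below the dim reference in both genotypes, Mpo and S100a8 among them. List means were 7.37 to 7.42 in the wild type and 7.38 to 7.48 in the knockout. EPHA2, EPHB4, AXL and TEK are commonly found in stromal and endothelial cells. Among 14 markers of these cells, Pecam1 rose by 0.46 (limma adjusted p = 0.00811) and 13 did not pass. An unadjusted p under 0.05 was found for 3 (Pecam1 higher, Egfl7 and Eng lower). Their list means were 7.97 to 8.09 in the wild type and 7.92 to 8.04 in the knockout. Above the dim reference in at least 1 genotype lay 9 of the 14, Eng (12.27 and 12.02) and Pecam1 (10.36 and 10.82) among them. The other 5, Cdh5 and Dcn among them, lay at or below it in both genotypes. Of 9 markers of mast cells and basophils none passed, with none at an unadjusted p under 0.05 and means of 6.29 to 6.39 and 6.31 to 6.37. None of 10 T and NK cell markers passed limma either, with 2 at an unadjusted p under 0.05 and means of 6.70 to 6.77 and 6.67 to 6.81. Of 4 sex-linked genes none passed, with none at an unadjusted p under 0.05. Beyond these values, the part of other cells in the receptor changes was not tested.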

How the data were processed

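Biotin-labelled total RNA of 6 samples was measured with 1-colour arrays by Affymetrix protocols, per the labels. The authors deposited 1 log2 value per sample for each of 35556 probe sets, made with RMA and Partek 6.5 per the submitters' processing notes. RMA quantile-normalizes and summarises probes, which compresses differences of dim probe sets. Its settings and the genome build are not given in these sources. The number of arrays limits the precision.

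Gene names came from a table of platform annotation (21789 with 1 gene, 1621 with several, 12146 with none listed), and 19856 genes were placed in order on GRCm38.p6. Promoter sequences are from RefSeq. Knockout was set against wild type in limma 3.58.1 under R 4.3.3 (lmFit, eBayes, no covariate, no filter; 6.23 total degrees of freedom), adjusted by Benjamini-Hochberg over all probe sets, two-sided, threshold 0.05. An exact permutation test of 3 against 3 cannot go below 0.1 and was not used. The fit was tested on simulated data. Receptors, lists, the rule for named genes (members that passed or had an unadjusted p under 0.05, 10 blood-cell receptors whatever their value, passing pathway and marker genes, partners and neighbours of called receptors) and the tests were chosen with earlier results of these data known. Sample numbers are shared between genotypes but no label pairs them, so samples were not paired. Alternatives covered the sample number as a block, dim and unnamed probe sets, normalization, variance model, array weights, thresholds, probe-set averaging and each sample left out.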

Additional observations from a re-analysis of the deposited data

How the results depend on the processing

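Ret, Ryk, Epha2 and Flt3 kept direction and call in all 15 alternative fits. With the sample number as a replicate block, 544 probe sets passed in place of 1095. So did 4 receptors in place of 7 (Ephb4, Tyro3 and Axl dropped to limma adjusted p = 0.0648, 0.157 and 0.174) and 4 proximal signalling genes in place of 9. Deviations of equally numbered samples correlated at -0.12, 0.016 and 0.26, and those of unequally numbered samples at -0.35 to 0.31. With 3 samples per genotype, these values cannot decide whether the numbers pair the samples. Leaving out 1 sample gave 565 to 857 probe sets, 4 to 5 receptors, 5 to 6 ligand and co-receptor genes and 4 to 6 proximal signalling genes; the probe-set count was 565 without wild-type sample 1, 620 without wild-type sample 2 and 586 without knockout sample 3, and the receptor count was 4 without knockout sample 2. At adjusted p under 0.01, 538 probe sets and 5 proximal genes passed, and with a 1.5-fold minimum 614 and 5. Testing single-gene probe sets alone, which adjusts for fewer features, gave 14 proximal genes. Averaging the probe sets of each gene, which changes both the values and the number of features, also gave 14. Epha5 passed in 7 of 15 alternatives (adjusted p 0.00922 to 0.181) and Ltk in 5 (0.0325 to 0.331). Axl also lost its call in the fit that used a variance trend and robust variance estimation together (the cause was not tested). No named gene changed sign with a call. Renormalizing moved the median of all probe sets by under 0.01 log2 units. Dim signals limit what 22 receptors can show.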

Other observations

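Of the receptors, 3 share chromosome 16 with Etv5, and they lay below or next to the dim reference, so their values cannot show whether the region around Etv5 differs. Ephb3, with 9 measured genes between it and Etv5, differed by -0.07 (limma adjusted p = 0.94). Epha3 and Epha6, which lie 275 and 271 measured genes away, differed by 0.13 and -0.06 without passing. The second probe set of Ephb1 differed by -0.03, beside -0.02 for the brighter one.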
